A study of Homo sapiens with 42 samples.

Results

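The apolipoprotein L genes APOL1, APOL2, APOL3, APOL4 and APOL6 were followed through 42 RNA sequencing libraries of K562 cells, an established line from a patient with chronic myeloid leukaemia in blast crisis. The 5 genes were taken by symbol from the 58243 genes of the count tables, and all 5 passed the filter on low counts in both kinds of library. They were picked after results of these same libraries were known, APOL4 being among the genes with large differences after imatinib. Their levels and fold changes are therefore given as a description, and no p-value is attached to them.

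K562 cells carry the BCR-ABL1 fusion kinase, which imatinib (IM) inhibits. Untreated cells (CTRL) were compared with cells given IM at 1 µM for 1, 6 or 18 h. JTE-607 (JTE), an inhibitor of the nuclease CPSF73 that cuts pre-mRNA 3′ ends, was given at 5 µM for 1, 6 or 18 h, and KCl, an osmotic stress, at 110 mM for 1 or 3 h. Polyadenylated whole-cell RNA was sequenced in all 9 groups (27 libraries), and ribosomal RNA-depleted nuclear RNA in 5 of them (15 libraries: CTRL, IM 1h, IM 18h, JTE 1h and KCl 1h), with 3 biological replicates in every group. All cells were of 1 line, and the control libraries carry no time label, so the same 3 controls of each fraction served every treatment time. In bulk RNA, fewer cells of a kind and less RNA per cell cannot be told apart.

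APOL proteins form a small family whose genes sit together in primates and are known as targets of interferon and other inflammatory signals. APOL1 is the member that is secreted into blood, where it rides on high-density lipoprotein and lyses trypanosomes by opening pores in their membranes. The other members lack a signal peptide and stay inside the cell. APOL3 is known to break up the membranes of bacteria in the cytosol of interferon-treated cells, and APOL6 holds a BH3-like stretch and kills cells when it is overexpressed.

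In the hg38 annotation of the count tables, the members lie on chromosome 22 within 619136 bases. APOL6 (ENSG00000221963, plus strand) covers bases 35648395 to 35668409 in 3 merged exons and stands apart from the rest. APOL3 (ENSG00000128284) covers 36140330 to 36166177 in 13 merged exons, APOL4 (ENSG00000100336) 36189124 to 36204840 in 7, and APOL2 (ENSG00000128335) 36226203 to 36239954 in 10, all on the minus strand. APOL1 (ENSG00000100342, plus strand) covers 36253010 to 36267530 in 8 merged exons. The gap between APOL3 and APOL4 is 22946 bases, between APOL4 and APOL2 21362 bases and between APOL2 and APOL1 13055 bases. Beyond APOL1, 13750 bases away and pointing towards it, comes MYH9, the heavy chain of non-muscle myosin. No exon base of a member was shared with another annotated gene. Of the 50-base stretches in a member's transcripts, between 0.138% (APOL3) and 5.37% (APOL4) also occurred in transcripts of another gene, and only uniquely mapped fragments entered the counts.

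Total counts ran from 16439848 to 62953314 per mRNA library and from 16175394 to 25103205 per nuclear library. Levels are CPM, counts scaled to a fixed library total, with trimmed mean of M values (TMM) factors, and comparisons between genes use CPM per kb of exon. The 2 fractions were scaled separately, so that a level is compared only within its fraction. A gene was called changed where edgeR's quasi-likelihood fit gave an adjusted p below 0.05 and an absolute log2 fold change above 0.6. All 8 erythroid markers fixed for K562 cells, among them globins, GATA1, TAL1 and KLF1, were expressed. They summed to between 2663 and 4489 CPM in the CTRL mRNA libraries, to between 4490 and 7376 CPM in IM 6h and to between 9860 and 14073 CPM in IM 18h, where 7 of the 8 were called higher. Of 7 markers of other cells, EPCAM (91.1 CPM in CTRL mRNA) was the most abundant, PECAM1 and LYZ were at 9.78 and 8.89 CPM, and CD3E was near 0 (0.0175 CPM). The 7 summed to between 111 and 116 CPM in CTRL and to between 94.5 and 103 CPM in IM 18h. What part the rise of the erythroid markers has in any APOL value was not tested.

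Per kb of exon, APOL1, APOL4 and APOL2 made up nearly the whole APOL signal of untreated cells. In CTRL mRNA, APOL1 was at 5.58 ± 0.229 CPM per kb (SD, n = 3), APOL4 at 3.90 ± 0.771, APOL2 at 3.76 ± 0.581, APOL6 at 0.347 ± 0.187 and APOL3 at 0.111 ± 0.0420. The shares of the summed level were 40.7% for APOL1, 28.5% for APOL4, 27.4% for APOL2, 2.52% for APOL6 and 0.815% for APOL3. APOL4 and APOL2 did not differ beyond their spread. In CTRL nuclear RNA the order was the same except that APOL2 (5.42 ± 0.775 CPM per kb) stood above APOL4 (4.11 ± 0.216). The sum of the 5 genes was 13.7 ± 0.306 CPM per kb in CTRL mRNA, 7.57 ± 0.476 in IM 6h, 7.24 ± 0.837 in IM 18h and 19.7 ± 1.21 in JTE 18h. The composition differed as well: in IM 18h mRNA, APOL2 held 57.6% ± 5.70 of the sum and APOL4 1.66% ± 1.36. In nuclear RNA, APOL2 went from 29.9% ± 2.22 of the sum in CTRL to 59.0% ± 1.92 in IM 18h, and APOL4 from 22.8% ± 1.99 to 0.871% ± 0.552.

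**Figure D1:**
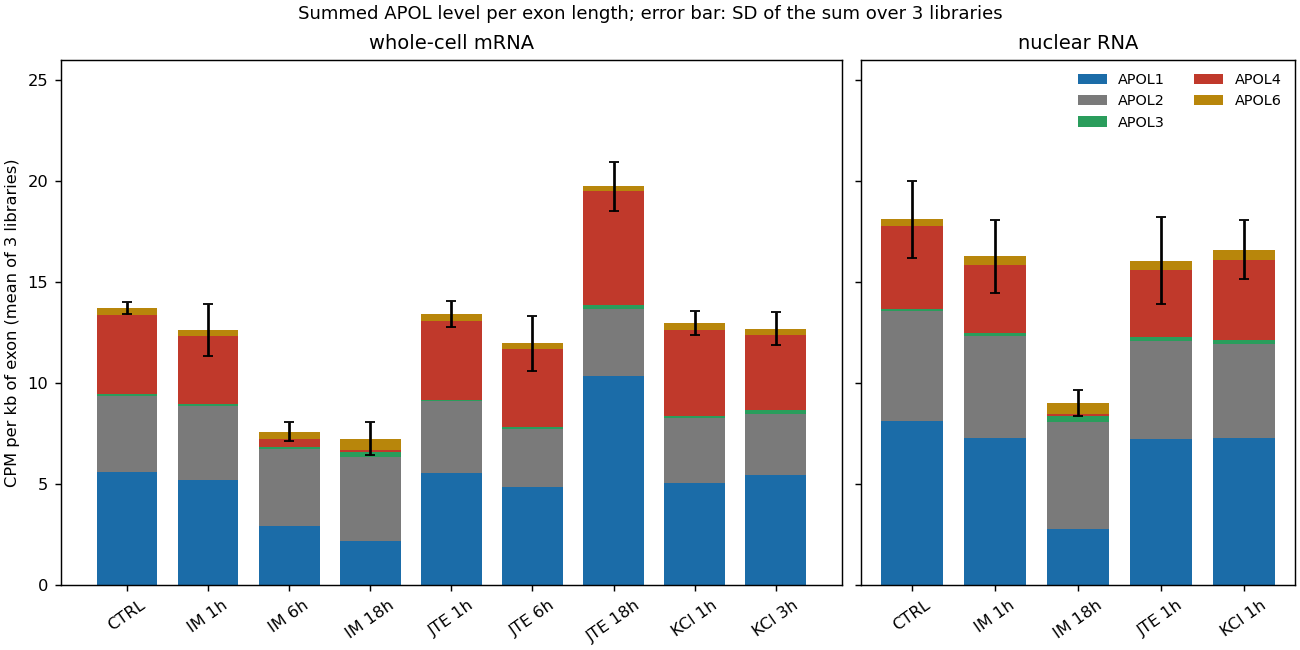
Stacked bars give the mean level of each APOL gene in CPM per kb of exon (y axis from 0) for each group (x axis) in whole-cell mRNA (left) and nuclear RNA (right), and the error bar is the SD of the summed level over 3 libraries. The sum is 13.7 in CTRL mRNA, 7.24 in IM 18h and 19.7 in JTE 18h, and the APOL4 part is nearly absent in IM 18h.

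APOL4 showed the largest difference of the 5 members. Its mRNA was at 15.5, 14.8 and 21.0 CPM in the 3 CTRL libraries, at 13.9, 13.3 and 17.0 in IM 1h, at 1.38, 2.63 and 1.38 in IM 6h and at 0.0543, 0.948 and 0.550 in IM 18h. The range of the IM 1h libraries overlapped CTRL. Each lay below the CTRL library of the same replicate number, but these numbers did not pair the mRNA libraries, so nothing is read from that. The IM 6h libraries lay wholly below CTRL, and the IM 18h libraries lay wholly below IM 6h. The last 3 values rest on 1, 18 and 10 counts, against 282 to 376 counts in CTRL. As fitted log2 fold changes against CTRL, these were -0.21 ± 0.27 (SE) at 1 h, -3.25 ± 0.32 at 6 h and -5.02 ± 0.38 at 18 h, so that the mean of IM 18h was 3.03% of the CTRL mean. Nuclear APOL4 RNA was at 16.9, 18.8 and 18.3 CPM in CTRL, at 14.6, 14.2 and 15.7 in IM 1h and at 0.122, 0.574 and 0.351 in IM 18h. In the nuclear fraction both IM groups therefore lay below CTRL without overlap, the first by -0.28 ± 0.16 and the second by -5.71 ± 0.25 on the log2 scale. Without replicate 2 of IM 18h the values at 18 h were -5.82 in mRNA and -6.33 in nuclear RNA. For the step from IM 6h to IM 18h in mRNA the fitted value was -1.77 ± 0.44, which was called, but -2.55 without IM 18h replicate 2, and no longer called without IM 18h replicate 1 (-1.25), without IM 6h replicate 2 (-1.39) or when only these 2 groups were fitted.

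Under JTE and KCl, no APOL4 value was called. Its mRNA was at 14.8, 16.2 and 20.7 CPM in JTE 1h, at 14.6, 13.0 and 22.9 in JTE 6h and at 26.6, 22.9 and 25.1 in JTE 18h. Only the JTE 18h libraries cleared the CTRL range, with a log2 fold change of 0.54 ± 0.27 that was not called. Under KCl it was at 15.2, 17.6 and 22.9 CPM after 1 h and at 15.3, 17.4 and 16.3 after 3 h. In nuclear RNA, JTE 1h held 11.9, 14.7 and 17.0 CPM, each below the CTRL library of the same replicate number, and the highest just above the lowest CTRL library. The fit gave -0.31 ± 0.16, a difference of similar size to that of nuclear IM 1h, and it was not called. Its 95% interval, from -0.62 to -0.0021, rests on a normal quantile and ends next to 0. It is not read as excluding 0. Nuclear KCl 1h held 18.0, 17.3 and 17.0 CPM (-0.04 ± 0.16). Ordered by mean mRNA level, APOL4 ran from IM 18h through IM 6h to IM 1h, KCl 3h, JTE 6h, CTRL, JTE 1h, KCl 1h and JTE 18h. Of the 8 steps in that order, 3 had ranges that stayed apart (IM 18h to IM 6h, IM 6h to IM 1h, and KCl 1h to JTE 18h) and 5 overlapped. Between IM 18h and JTE 18h, the same length of exposure to the 2 compounds, the APOL4 fit gave -5.56 ± 0.38, or -6.36 without IM 18h replicate 2.

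APOL1, the secreted member, was lower after imatinib and higher after long JTE exposure. The CTRL mRNA libraries held 19.0, 20.5 and 19.5 CPM, the IM 1h libraries 19.3, 16.4 and 18.9, the IM 6h libraries 9.70, 10.9 and 10.2, and the IM 18h libraries 7.66, 8.90 and 6.16. From 6 h on, every IM library lay below every CTRL library, and IM 18h below IM 6h. The log2 fold changes were -0.11 ± 0.15 at 1 h, -0.94 ± 0.15 at 6 h and -1.37 ± 0.16 at 18 h, the last being 38.5% of the CTRL mean. In nuclear RNA, CTRL held 24.9, 27.9 and 32.9 CPM, IM 1h 22.1, 25.7 and 29.0, and IM 18h 8.98, 9.99 and 10.2, which gave -0.16 ± 0.14 and -1.55 ± 0.15. The IM 1h libraries overlapped CTRL in both fractions. Nuclear libraries are paired by replicate number, and within pairs APOL1 was lower than CTRL in all 3 pairs of IM 1h, and also of JTE 1h and KCl 1h, which share these controls. With the replicate block the 3 APOL1 values were -0.16, -0.17 and -0.16, and none was called. APOL2 was likewise lower than CTRL in all 3 nuclear pairs of IM 1h, JTE 1h and KCl 1h. Its values with the block were -0.11, -0.15 and -0.21, and none was called.

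With JTE, APOL1 mRNA was at 20.1, 18.7 and 19.5 CPM after 1 h, at 11.8, 19.1 and 20.2 after 6 h and at 34.8, 42 and 32.4 after 18 h. One of the JTE 6h libraries stood well below the other two, and all JTE 18h libraries lay above all other mRNA libraries. The log2 fold change at 18 h was 0.89 ± 0.15. In the same JTE 18h libraries the 7 markers of other cells summed to between 127 and 141 CPM, above the CTRL range, with 1 of 5 tested called higher, and the part of this in the APOL1 value was not tested. IM 18h against JTE 18h came to -2.26 ± 0.16 for APOL1. KCl gave 17.7, 17.0 and 18.6 CPM after 1 h, just below the CTRL range (-0.14 ± 0.15), and 20.2, 18.5 and 18.7 after 3 h. In the order of mRNA levels, IM 18h, IM 6h and JTE 18h were each apart from their neighbours, and the 6 groups between them overlapped from one to the next.

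**Figure D2:**
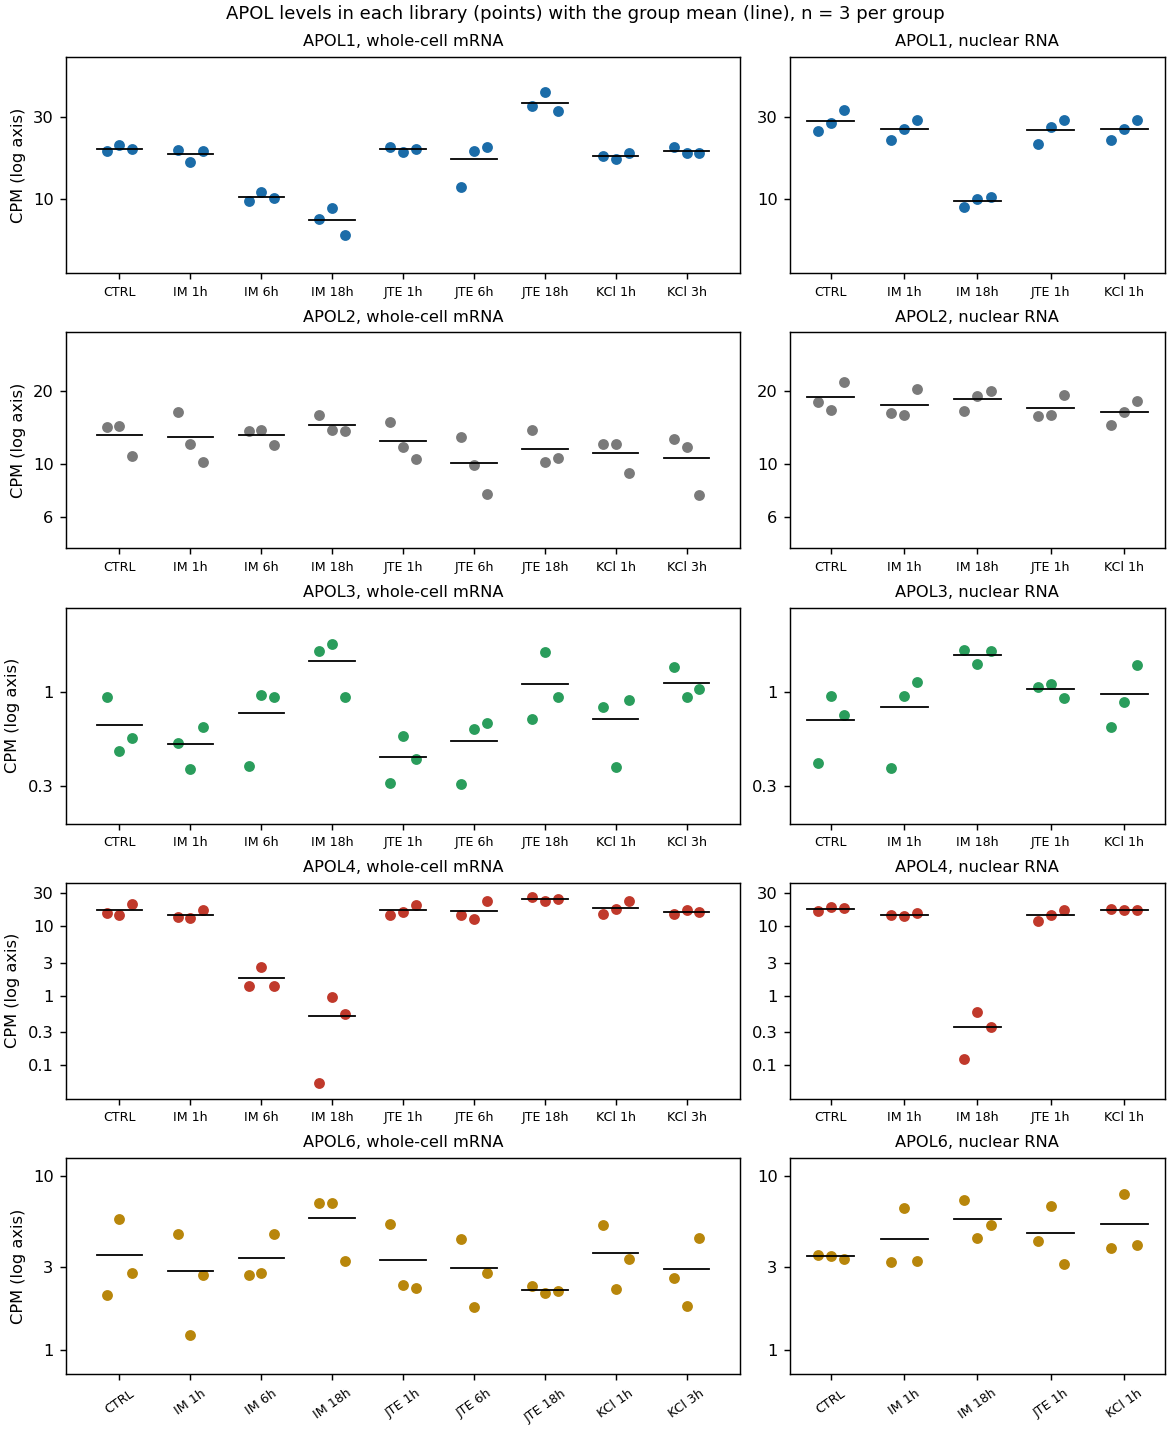
Each point is 1 library and each line the mean of 3 libraries, with CPM on a log axis, groups on the x axis, whole-cell mRNA in the left panels and nuclear RNA in the right ones, 1 row per gene. APOL4 falls below 1 CPM in all 6 IM 18h libraries, APOL1 in IM 18h lies between 6.16 and 10.2 CPM, and every APOL2 group overlaps the CTRL libraries of its fraction.

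APOL2 was not called in any comparison. The 27 mRNA libraries ranged from 7.42 to 16.4 CPM and the 15 nuclear ones from 14.5 to 21.9, and all groups next to each other in the order of levels overlapped in both fractions. Groups farther apart in that order need not overlap, and the IM 18h mRNA libraries lay wholly above those of JTE 6h, KCl 1h and KCl 3h. CTRL mRNA was at 14.2, 14.4 and 10.8 CPM and IM 18h mRNA at 15.9, 13.8 and 13.6. The log2 fold change in IM 18h was 0.14 ± 0.21 in mRNA, with a 95% interval from -0.28 to 0.56, and -0.03 ± 0.14 in nuclear RNA, with an interval from -0.30 to 0.25. These intervals bound the size of a difference and do not show that there was none. The value farthest from 0 was -0.38 ± 0.22, in JTE 6h mRNA, where the libraries held 12.9, 9.85 and 7.47 CPM.

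APOL3, the member known for killing bacteria in the cytosol, was the scarcest, with 5 to 39 counts per mRNA library and 7 to 42 per nuclear library. Its mRNA was at 0.937, 0.471 and 0.557 CPM in CTRL, at 0.388, 0.963 and 0.935 in IM 6h and at 1.68, 1.84 and 0.935 in IM 18h, so that the third IM 18h library reached down to the highest CTRL library. In nuclear RNA, CTRL held 0.402, 0.957 and 0.743 CPM and IM 18h 1.71, 1.43 and 1.70, with no overlap. The fits for IM 18h were 1.18 ± 0.42 in mRNA and 1.20 ± 0.35 in nuclear RNA. Both were called, but the mRNA call was lost when replicate 2 (0.96) or 3 (1.04) of CTRL was left out, and likewise for replicates 1 (1.08) and 2 (0.97) of IM 18h. JTE 18h mRNA held 0.709, 1.67 and 0.941 CPM (0.74 ± 0.43), and KCl 3h mRNA held 1.37, 0.945 and 1.04 CPM (0.77 ± 0.42), neither being called. In mRNA no group was apart from the next in the order of APOL3 levels, and in nuclear RNA only IM 18h was.

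APOL6, which holds a BH3-like stretch, varied widely between replicates of a group. The CTRL mRNA libraries held 2.09, 5.66 and 2.79 CPM, the IM 18h libraries 7.0, 7.05 and 3.25, and the JTE 18h libraries 2.33, 2.14 and 2.20. The log2 fold changes were 0.71 ± 0.47 in IM 18h and -0.66 ± 0.49 in JTE 18h, and neither was called. Against each other these 2 groups did not overlap, and the fit gave 1.37 ± 0.48, which was called. That call was lost when IM 18h replicate 1 (1.21) or 2 (1.19), or any of JTE 18h replicates 1 (1.38), 2 (1.33) and 3 (1.34), was left out. In nuclear RNA, CTRL was tight at 3.53, 3.51 and 3.37 CPM, and IM 18h held 7.31, 4.40 and 5.27, all above CTRL (0.71 ± 0.35, not called). Replicate 2 was the highest of its group in IM 1h (6.61 CPM), JTE 1h (6.72) and KCl 1h (7.96) nuclear RNA, but not in CTRL or IM 18h. In mRNA, replicate 1 was the highest in IM 1h (4.65 CPM), JTE 1h (5.29), JTE 6h (4.34), JTE 18h (2.33) and KCl 1h (5.23). It was not the highest in CTRL, IM 6h, IM 18h or KCl 3h mRNA. The part of a replicate batch in the APOL6 spread was not tested.

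Over the 5 members, 2 were called lower and 0 higher in IM 6h mRNA, where 4.12% of the 18095 genes tested were called lower and 5.82% higher. In IM 18h mRNA 2 were called lower (13.2% of all genes) and 1 higher (17.2%), and in IM 18h nuclear RNA 2 lower (15.4% of 21929 genes) and 1 higher (17.2%). JTE 18h mRNA had 1 member called higher (3.29%) and 0 lower (2.09%). For IM 18h against JTE 18h, 2 members were called lower (13.6%) and 1 higher (16.7%), and for IM 18h against IM 6h 1 was called lower (1.93%) and 0 higher (2.48%). No member was called in IM 1h mRNA (0.0166% of genes in either direction), JTE 1h mRNA (0.851%), JTE 6h mRNA (13.2%), KCl 1h mRNA (5.45%) or KCl 3h mRNA (11.9%), nor in nuclear IM 1h (0.0456%), JTE 1h (8.52%) or KCl 1h (23.8%). These edgeR calls only describe genes picked with such values known, and nothing is read from their number. The median log2 fold change of the members was 0.14 in IM 18h mRNA, beside 0.04 over all genes, since members lay on both sides of 0.

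**Figure D3:**
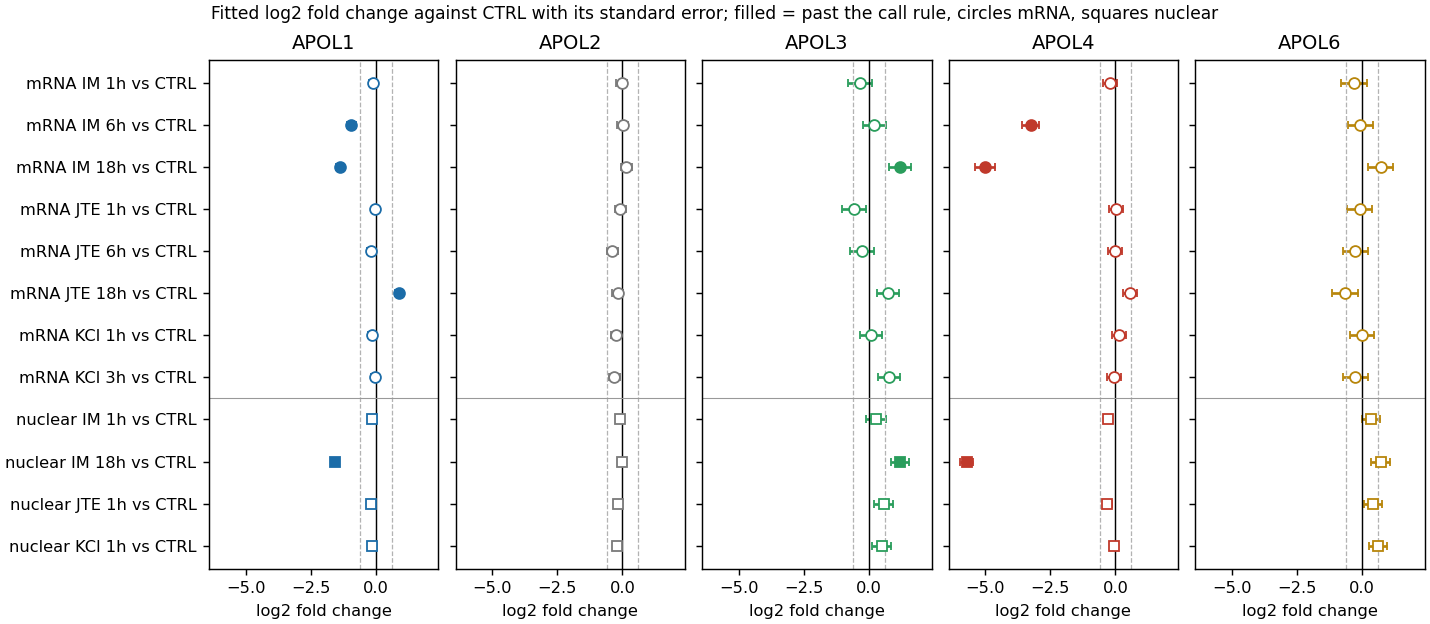
Each panel shows 1 gene, with the fitted log2 fold change against CTRL on the x axis and the 12 comparisons on the y axis, circles for mRNA, squares for nuclear RNA, bars for the standard error and dashed lines at 0.6 on either side of 0. Filled symbols passed the call rule: APOL4 and APOL1 in IM 6h and IM 18h, APOL1 also in JTE 18h, and APOL3 in IM 18h.

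Members were also counted by whether the range of a group's libraries cleared that of CTRL, and nothing is read from these counts either. In IM 6h mRNA, and again in IM 18h mRNA, 2 members lay wholly below CTRL, where 14.8% and 26.1% of all tested genes did, and in IM 18h nuclear RNA 2 members lay below (27.1% of genes) and 2 above (26.5%). JTE 18h mRNA had 2 members above CTRL (15%), KCl 3h mRNA 1 (14.5%) and KCl 1h nuclear RNA 1 (20.8%), while 1 lay below in KCl 1h mRNA (8.92%) and 1 in IM 1h nuclear RNA (6.12%).

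Across the 27 mRNA libraries, which include repeated groups and share their depth differences, log2 CPM of APOL1 and APOL4 moved together (Pearson's r = 0.87), whereas every other pair of members had an r between -0.46 and 0.33. Among 12943 other genes, the 3 with the pattern most like that of APOL4 were TMEM273 (r = 0.98), MAGI1, a scaffold protein of cell junctions (r = 0.98), and the kinase gene PIM2 (r = 0.97). Their own log2 fold changes in IM 18h mRNA were -3.85, -2.65 and -2.39. Closest to APOL1 were GYG2, a glycogenin that primes glycogen synthesis (r = 0.94), the actin crosslinker ACTN4 (r = 0.94) and LSR, a receptor for lipoproteins (r = 0.93). Their rho with APOL1 was 0.85, 0.79 and 0.88. For APOL2 the list read ANKZF1, MRPS14 and TNKS1BP1 (r from 0.83 to 0.86), for APOL3 TUBA1A, TMEM94 and BRME1 (r from 0.74 to 0.84) and for APOL6 PACSIN2, AARS1 and CLIC4 (r from 0.86 to 0.88). PACSIN2 is also on chromosome 22, but none of these genes is one of the members' neighbours within 300000 bases.

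The neighbours of the APOL genes, which did not enter the choice of members, were tested next. Like the other gene lists, theirs was set with earlier results of these data known, so its counts and p-values are only descriptive. Of 37 other annotated genes within 300000 bases of the members' interval, 8 passed the count filter in mRNA and 9 in nuclear RNA. In IM 18h mRNA, 0 of the 8 were called by edgeR, beside 17.2% and 13.2% of all genes called higher and lower, and their median log2 fold change was 0.09. MYH9 was at 228, 247 and 289 CPM in CTRL mRNA and at 381, 304 and 309 in IM 18h. Its log2 fold change was 0.38 ± 0.15 (adjusted p = 0.0365), below the fold threshold, and 0.41 ± 0.08 in nuclear RNA (adjusted p = 0.000258). By adjusted p alone 3 of the 8 mRNA neighbours passed (MYH9 and, named after their values were seen, TXN2 and EIF3D), so the count of 0 rests on the fold threshold. RBFOX2, the splicing factor gene that fills much of the space between APOL6 and APOL3, had -0.04 ± 0.09 (adjusted p = 0.76) in IM 18h mRNA. In nuclear RNA 1 of 9 neighbours was called lower in IM 18h, the noncoding gene ENSG00000279652 (-0.71 ± 0.20, adjusted p = 0.00716), which has no symbol and was named after its value was seen. It lies on chromosome 22 at bases 35992321 to 36000469 on the plus strand within the span of RBFOX2, which is on the minus strand, so that reads of the 2 genes cannot be told apart. Its call was lost without IM 18h replicate 1. Neither JTE 18h nor KCl 3h mRNA had a neighbour called (0 of 8 each, and 1 and 0 by adjusted p alone), nor had JTE 1h nuclear RNA (0 of 9, and 0 by adjusted p alone). At an unadjusted p under 0.05, 4 of the 8 passed in IM 18h mRNA, 4 in JTE 18h and 2 in KCl 3h, and 2 of the 9 in JTE 1h nuclear RNA, and DESeq2 called 0 in each of these.

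**Figure D4:**
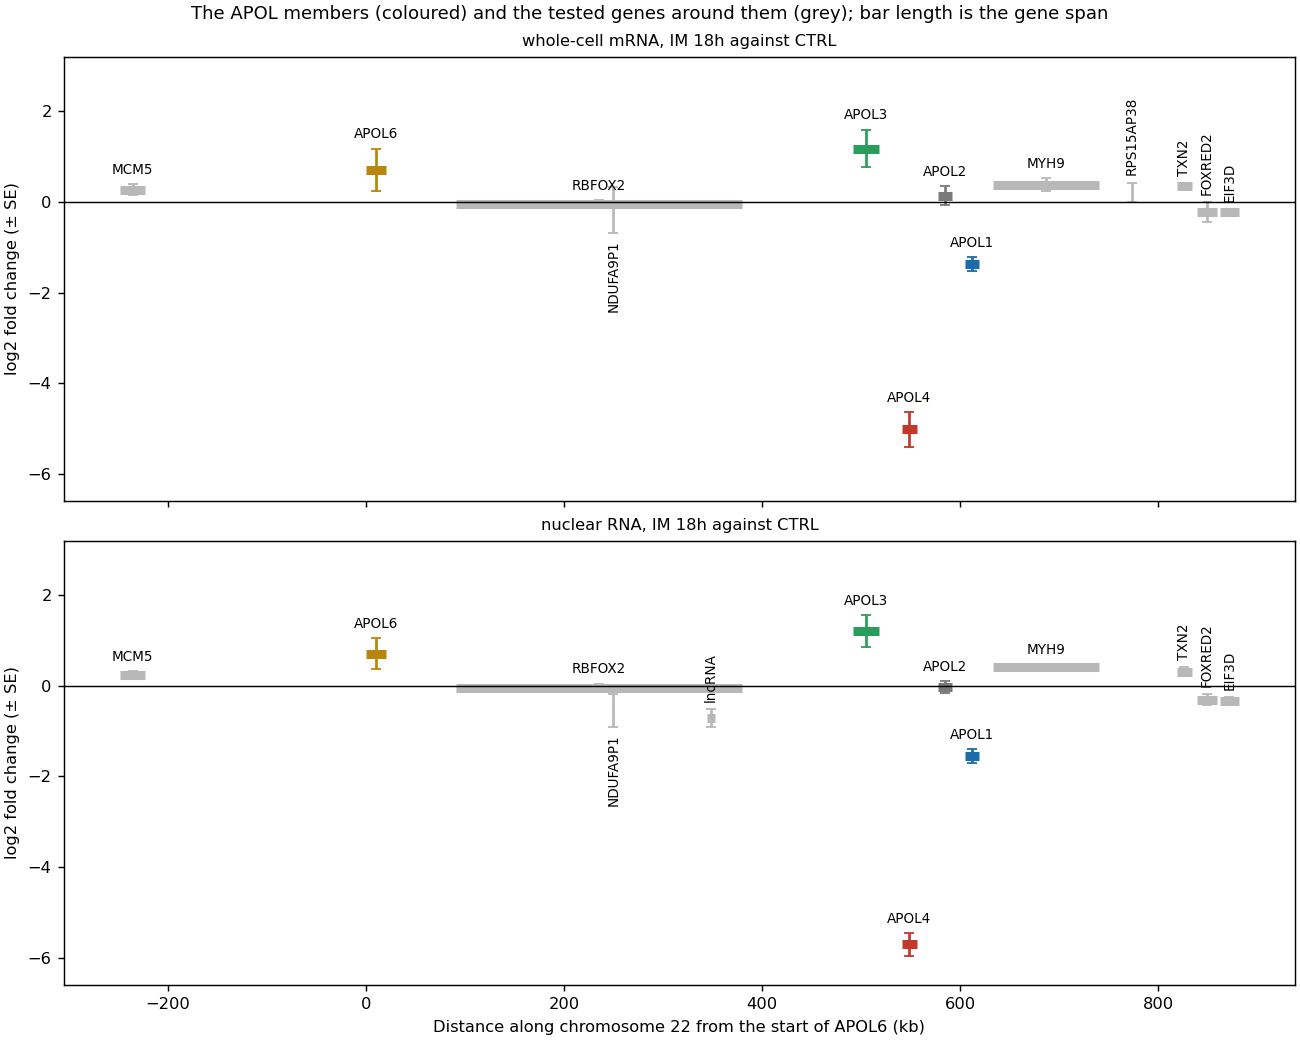
The x axis is the distance in kb from the start of APOL6 along chromosome 22, the y axis the fitted log2 fold change in IM 18h against CTRL, bar length the span of the gene, and error bars the standard error, for mRNA (top) and nuclear RNA (bottom). The coloured APOL genes spread from -5.02 to 1.18 in mRNA, and the light grey neighbours from -0.23 to 0.38 in mRNA and from -0.71 (the lncRNA) to 0.41 in nuclear RNA. APOL5 is left out because it has no count in CTRL.

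APOL5, the family gene between APOL6 and RBFOX2 that was no member, had no count in any CTRL library of either fraction. In KCl 1h nuclear RNA it had 13, 13 and 15 counts, a mean of 0.675 ± 0.0633 CPM. Set against 3 counts per control library, that is at least 4.55-fold higher than CTRL. APOL5 passed the count filter only through these 3 libraries, so its call there is given no p-value. No other group exceeded 1 count per library in nuclear RNA, nor 3 in mRNA, where the gene did not pass the filter. APOLD1, named for an APOL-like domain, was at 1.32, 2.10 and 1.84 CPM in CTRL mRNA and at 3.64, 2.74 and 2.59 in IM 18h, with no overlap. It was called higher there (0.77 ± 0.28, adjusted p = 0.0322) and fell short of the fold threshold in nuclear RNA (0.54 ± 0.20, adjusted p = 0.0326).

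Since APOL genes are known interferon targets, 70 genes of the interferon pathway were read beside them, of which 54 were tested in each fraction. This list was chosen with earlier results of these data known, so its counts and adjusted p-values are only descriptive. In IM 18h mRNA, 17 of 54 were called higher and 6 lower (31.5% and 11.1%, against 17.2% and 13.2% of all genes), with a median log2 fold change of 0.46 beside 0.04 over all genes. The median was 0.41 with CXCL10, which had no control count, set at its bound. The 4 largest were IFIT2 (2.53 ± 0.59) and IFIT1 (2.36 ± 0.58, adjusted p = 0.00217), which bind viral RNA, OAS3, a sensor of double-stranded RNA (2.06 ± 0.37, adjusted p = 0.000103), and STAT2, a subunit of the interferon-activated transcription factor (1.64 ± 0.14, adjusted p = 5.39e-09). IFIT1 and IFIT2 were scarce, at 0.274 and 0.163 CPM in CTRL, and IFIT2 passed the count filter only through IM 18h, so that it had to be higher there and is given no p-value. Without it 16 were higher and 6 lower, beside 16.3% and 13.5% of all genes treated the same way. STAT2 went from 41.7 ± 4.65 to 129 ± 15.6 CPM. Among 34 targets 12 were called higher and 4 lower, and among 11 transcription factors 4 higher and 1 lower. Of 7 receptors and kinases 1 was higher (JAK2, 1.13 ± 0.15, adjusted p = 3.30e-06), and of 2 inhibitors 1 was lower (SOCS1, -1.17 ± 0.44, adjusted p = 0.0348). JAK2 and SOCS1 were named after their values were seen. The erythroid markers given above were higher in the same libraries, and their part in these values was not tested.

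In IM 6h mRNA 6 genes of the list were higher and 2 lower (11.1% and 3.70%, against 5.82% and 4.12% of all genes), led by IFIT1 (2.24 ± 0.58, adjusted p = 0.0102), IFIT2 (2.09 ± 0.60, adjusted p = 0.0187), STAT2 (1.16 ± 0.13, adjusted p = 4.65e-06) and IFIT3 (1.04 ± 0.27, adjusted p = 0.01). In IM 18h nuclear RNA 19 were higher and 10 lower (35.2% and 18.5%, against 17.2% and 15.4%), led by NLRC5, the activator of MHC class I genes (4.21 ± 0.62), IFIT1 (2.99 ± 0.46), the guanylate-binding GBP2 (2.10 ± 0.38, adjusted p = 0.000148) and OAS3 (2.06 ± 0.24, adjusted p = 8.75e-07). NLRC5 went there from 0.0783 ± 0.0294 to 1.5 ± 0.788 CPM. NLRC5, IFIT1 and 1 further gene passed the nuclear filter only through IM 18h, and without these 3 there were 16 higher and 10 lower of 51, beside 15.8% of all genes either way. JTE 18h mRNA had 3 higher and 3 lower (5.56% each, against 3.29% and 2.09%), among them IFI35 (-2.01 ± 0.31, adjusted p = 0.000198), IFI27 (1.94 ± 0.42, adjusted p = 0.00408) and STAT5A, which BCR-ABL1 signalling is known to activate (-0.85 ± 0.15, adjusted p = 0.000711). KCl 3h mRNA had 2 higher and 2 lower (3.70% each, against 4.55% and 7.33%). Of these the chemokine CXCL10 went from no count in CTRL to between 22 and 67 counts, at least 12.2-fold higher, having passed the filter only through KCl 3h, and USP18, a brake on interferon signalling, by 1.59 ± 0.50 (adjusted p = 0.0312). CIITA, the activator of MHC class II genes (-1.67 ± 0.52, adjusted p = 0.0288), and IRF1 (-0.68 ± 0.23, adjusted p = 0.0468) were lower. Without CXCL10, which had to be higher in KCl 3h, 1 of 53 was higher and 2 lower, beside 3.57% and 7.4% of all genes treated the same way. The KCl 3h count of 4 was 1 without CTRL replicate 1 or KCl 3h replicate 3, and 2 without CTRL replicate 2, CTRL replicate 3 or KCl 3h replicate 1.

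After 1 h, nuclear RNA showed few interferon list calls. JTE had 2 higher and 2 lower (3.70% each, against 7% and 1.51% of all genes), namely the exonuclease gene ISG20 (1.69 ± 0.29, adjusted p = 0.000515), IFI27 (1.64 ± 0.30, adjusted p = 0.000999), SOCS1 (-1.63 ± 0.23, adjusted p = 8.63e-05) and IRF1 (-0.62 ± 0.15, adjusted p = 0.0108). KCl had 4 higher and 0 lower (7.41%, against 15.3% and 8.5% of all genes), namely NLRC5 (2.88 ± 0.71, adjusted p = 0.00381), ISG20 (2.37 ± 0.28, adjusted p = 1.72e-06), IFI27 (1.35 ± 0.31, adjusted p = 0.00198) and RIGI, the sensor of viral RNA (1.01 ± 0.23, adjusted p = 0.00165). In IM 1h, 0 of 54 were called in either fraction, where 3 genes in mRNA and 10 in nuclear RNA were called in all. At an unadjusted p under 0.05 the list had 1 gene in each fraction of IM 1h, and DESeq2 called 0. In the IM 18h libraries more listed genes were called higher than lower, and the APOL genes lay on both sides. APOL1 and APOL4 were below CTRL, while APOL3 was called higher (1.18 in mRNA and 1.20 in nuclear RNA). APOL6 had 0.71 in both fractions, and APOL2 had 0.14 in mRNA and -0.03 in nuclear RNA, none of these being called. The part of interferon signalling in these values was not tested.

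**Figure D5:**
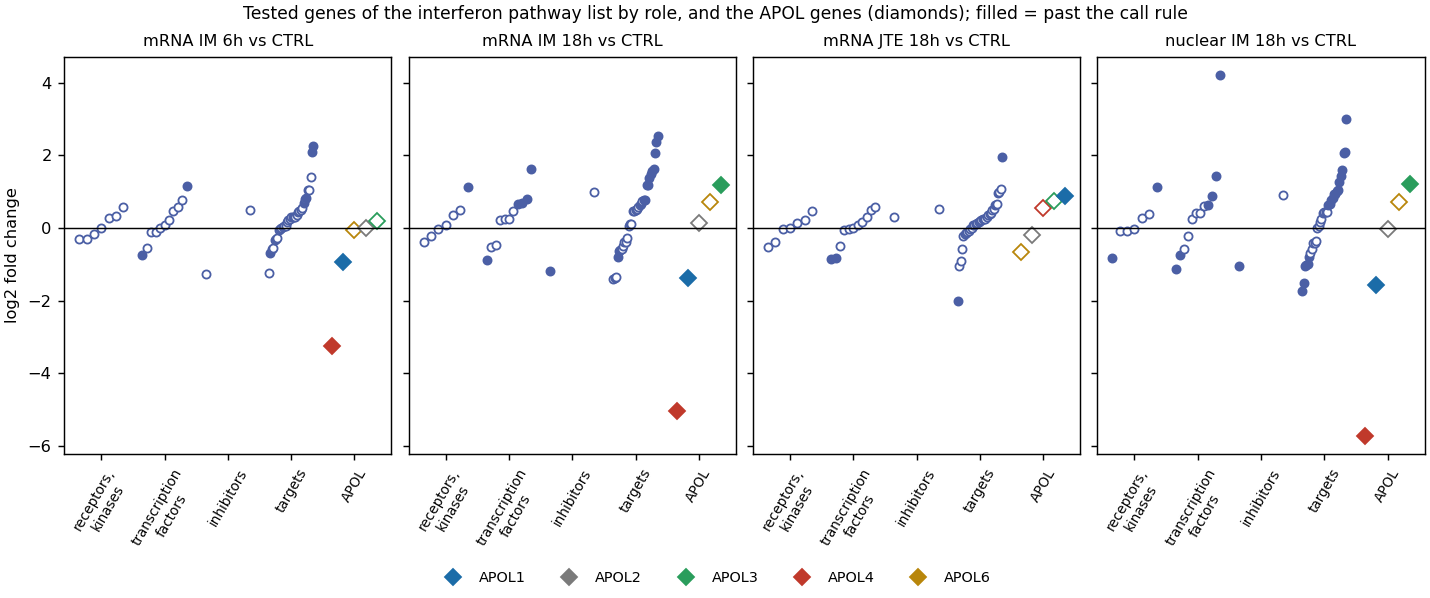
Each circle is a tested gene of the interferon pathway list, grouped by role on the x axis, and each diamond an APOL gene, with the fitted log2 fold change on the y axis, for 4 comparisons with CTRL. Filled symbols passed the call rule, and CXCL10 is left out because it has no count in CTRL. In IM 18h mRNA 17 circles are filled above 0 and 6 below, with APOL4 at -5.02, APOL1 at -1.37 and APOL3 at 1.18.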

How the data were processed

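Fragments had been trimmed and deduplicated with fastp, aligned by the authors to hg38 with STAR keeping unique hits, and counted over exons with featureCounts without strand, so antisense reads are included. The deposited values are raw counts per gene, used as deposited. Gene positions come from the count tables, of whose 58243 IDs 57532 are in GENCODE 44.

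All libraries of a fraction entered 1 edgeR 4.0.16 quasi-likelihood fit (R 4.3.3, robust, TMM scaling, filterByExpr with a minimum of 10 counts in 3 libraries at the median depth), with Benjamini-Hochberg adjustment over all genes tested. The standard error is the fold change divided by the root of F, and 95% intervals are 1.96 of these. The procedure was tested on simulated counts. Patterns were compared as log2(CPM + 0.5) over genes with a mean of at least 1 CPM. The p-values rest on the spread between biological replicates within groups, since the main fit had no replicate term. In the nuclear libraries, which pair by number, that spread includes the differences between replicate numbers. No replicate pair agreed within sampling noise (chi-square per gene of 2.37 or more). The lowest value, 2.37, was that of JTE 18h mRNA replicates 1 and 3, and the next lowest was 6.08 (CTRL nuclear replicates 2 and 3). How independent these 2 JTE 18h libraries are was not tested, and their closeness bears on every JTE 18h comparison.

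Replicate numbers paired the nuclear libraries (correlations of deviations from 0.24 to 0.89). As deposited, they did not pair the mRNA libraries (from -0.37 to 0.88). Against CTRL, mRNA replicate 3 had from 0.06 (JTE 18h) to 0.88 (IM 1h), and replicates 1 and 2 from -0.37 to 0.08. The mRNA CTRL libraries numbered 1 and 2 here hold 18333127 and 19031221 counts, and the paper lists these totals in the opposite order. Whether the mRNA libraries pair in the paper's order was not tested. The members and lists were chosen with earlier results of these data known. Named beside the members are at most 4 called genes of each list and comparison, MYH9, APOL5, APOLD1 and the 3 genes of most similar pattern, and a few others said to be named after their values were seen. One gene that this rule would name is not reported here. Alternatives were DESeq2 1.42.0, RLE scaling, no count filter, adjusted p alone, only the 2 groups compared, a replicate block and each library left out.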

Additional observations from a re-analysis of the deposited data

How the results depend on the processing

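Of the counts of called genes recomputed under the alternatives, 293 stayed within 1.5 times and 19 did not. The count of 1 APOL gene called for IM 18h against IM 6h was 0 with only the 2 groups and ranged from 0 to 1 with each library left out. The interferon list in KCl 3h mRNA (4 called) gave 7 without the count filter, 2 with only the 2 groups and 1 to 4 with each library left out. Neighbours called in IM 18h mRNA (0) were 1 without the filter and 3 by adjusted p alone, in JTE 18h mRNA (0) 1 by adjusted p alone, in KCl 3h mRNA (0) 4 without the filter, in IM 18h nuclear RNA (1) 6 by adjusted p alone and 0 to 1 with each library left out, and in KCl 1h nuclear RNA (1) 6 without the filter, 2 by adjusted p alone and 1 to 2 with each library left out. Without the filter more low-count genes are tested, and adjusted p alone drops the fold threshold. The cause of the other shifts was not tested. With a replicate block, APOL4 in IM 18h was -5.71 in nuclear RNA and -5.02 in mRNA, and no APOL call changed. The interferon list in IM 18h then had 32 called in nuclear RNA and 24 in mRNA, beside 29 and 23, and 6 rather than 4 in KCl 3h mRNA. The mRNA block used the deposited replicate numbers, which do not pair the mRNA libraries with CTRL. A block in the paper's order of the CTRL libraries was not fitted. APOL6 in IM 18h nuclear RNA was called without the filter (0.71) and with only the 2 groups (0.71). Counts of 5 to 42 for APOL3, and of 1 to 18 for APOL4 in IM 18h, limit the precision there.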

Other observations

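Other apolipoprotein genes were read for comparison with the APOL genes. Their list, too, was chosen with earlier results of these data known, so its counts and adjusted p-values are only descriptive. Of 22 listed, 8 passed the count filter in mRNA and 12 in nuclear RNA, APOL5 and APOLD1 among them. APOC1 (58.2 CPM in CTRL mRNA), APOOL (49.9) and APOE (47.0) were the most abundant. In IM 18h nuclear RNA 5 of 12 were called higher by edgeR and 0 lower, beside 17.2% and 15.4% of all genes. These were APOD, a lipocalin (3.03 ± 0.49), the haemoglobin-binding HP (1.71 ± 0.42, adjusted p = 0.00229), the chaperone CLU (1.32 ± 0.39, adjusted p = 0.00937), APOF (1.30 ± 0.40, adjusted p = 0.011) and APOE, the ligand of lipoprotein receptors (0.63 ± 0.17, adjusted p = 0.00535), the last named because the count is 5. APOD passed the count filter only through IM 18h, so it had to be higher there and is given no p-value. Without it 4 of 11 were higher, beside 15.8% of all genes treated the same way. APOD went from 0.123 ± 0.021 to 1.05 ± 0.257 CPM, and APOE from 52.9 ± 10.3 to 81.8 ± 15.6 CPM. In IM 18h mRNA only APOLD1 was called of 8, and APOE had 0.61 ± 0.34 (adjusted p = 0.154).

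In KCl 1h nuclear RNA 4 of the 12 were called higher and 0 lower (15.3% and 8.5% of all genes): APOL5, which passed the filter only through this group (3 of 11 without it, beside 9.61% of all genes), HP (2.49 ± 0.39, adjusted p = 3.91e-05), CLU (2.09 ± 0.37, adjusted p = 0.000144) and HPR, a relative of HP (1.01 ± 0.36, adjusted p = 0.0398). JTE 1h nuclear RNA had HP called higher (1.67 ± 0.42, adjusted p = 0.0122) and 0 lower. HP and HPR are near-identical copies, so the split of reads between them is uncertain. HPR and APOL1 are both parts of the trypanolytic particle of human serum. HPR was at 0.371 ± 0.0284 CPM in CTRL and 0.756 ± 0.0177 in KCl 1h nuclear RNA, where APOL1 had a log2 fold change of -0.16 ± 0.14.

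One neighbour outside the main comparisons, FOXRED2, was called lower in JTE 6h mRNA (-1.01 ± 0.22, adjusted p = 0.00143), with -0.13 ± 0.21 (adjusted p = 0.787) in JTE 18h. It was named after its value was seen.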
